A study of Mus musculus with 20 samples.

Results

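The genes described here are 32 genes named for the epithelium of the choroid plexus, read from the array table as the probe set that carries each symbol alone. Such a probe set was found for 29 of the 32 genes, 1 for each gene, among 28767 probe sets on the array. Enpp2, Prlr and Lmx1a were not analysed here. The tissue was the amygdala of male mice on a C57BL/6 background by the labels (C57BL/6J by the methods), 7 months old and born to parents heterozygous for the serotonin transporter 5-HTT (gene Slc6a4). Each array holds the RNA of 1 mouse, with both amygdalae together. The 4 groups of 5 mice were KO stress (homozygous knockout mice, 1 min in water of 22 °C), KO con (knockout mice, 1 min in the home cage), WT stress (wildtype mice, the same water) and WT con (wildtype, home cage). The knockout is present in all cells from conception, and all mice of the 4 groups had been housed singly, had passed an elevated plus-maze test and were killed under isoflurane within a protocol of 9 min. The study asked which amygdala genes respond to the short stressor and whether the response depends on the 5-HTT genotype.

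The choroid plexus is a folded sheet of epithelium inside the brain ventricles that secretes the cerebrospinal fluid. Its cells move sodium, chloride, bicarbonate and water across the apical membrane, close the path between cells with tight junctions, and release carrier proteins, of which transthyretin is the best known. The amygdala holds no choroid plexus of its own but lies beside the temporal horn of the lateral ventricle, where the plexus hangs. The measured values are log2 signals of a whole-tissue extract, so that fewer cells of a type and less RNA per cell cannot be told apart. Values on the array start at 4.09, the array medians were 6.59 to 6.82, and the lowest mean of any of the 29 genes over all arrays was 5.52. In KO con alone the means ran from 5.09 for Steap1 to 9.04 for Ttr. The SD there was 0.06 for Cldn1 (mean 5.79) and 0.04 for Trpv4 (mean 6.12), but also 0.03 for Tcn2 (mean 8.5). Whether the low values lie above background was not tested. This limits what narrow spreads, groups without overlap and weak correlations of genes with low values can show. Neuronal genes of the labelled tissue had mean levels over the arrays of 8.65 to 9.97 for GABAergic and 7.35 to 9.60 for pallial excitatory neuron genes. Single pallial genes varied more. Neurod6 read from 4.56 in WT con replicate 4 to 9.09 in WT stress replicate 4, and Slc17a7 read 6.92 in KO con replicate 2 and 11.04 in KO con replicate 1.

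Of the 29 genes, 19 are on gene lists that the study drew up from these same arrays, and 10 are not (Folr1, Slc4a2, Otx2, Calml4, Cldn1, Steap1, Wdr86, Cab39l, Slc16a8 and Tcn2). For the 19 genes, values in the comparison of KO stress with KO con are therefore no independent evidence of a direction, and both sets are given apart there. The same limit holds for the other comparisons that use the KO stress or KO con arrays, including the interaction and the average. The medians of the 20 arrays ranged over 6.59 to 6.82. The correlation between 2 arrays was 0.948 to 0.996. The median correlation of an array with the other arrays was lowest for WT stress replicate 1 (0.961) and WT con replicate 1 (0.978). The probe set of Slc6a4 read 8.10 to 8.38 in KO stress, 8.11 to 8.20 in KO con, 6.30 to 6.55 in WT stress and 5.82 to 7.82 in WT con, with the signal higher in the knockout and with WT con replicate 5 (7.82) apart from the other WT arrays. No source used here places its probes relative to the disrupted sequence, so that the probe set separates the labelled genotypes without measuring the loss.

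Otx2, itself among the 29 genes, encodes a homeodomain factor needed for the formation of the choroid plexus, and proteins of its class read the core sequence GGATTA, or TAATCC on the other strand. The 250 bases before the start site (RefSeq, GRCm38.p6) were available for 23 of the 29 genes, in 31 windows since some genes have several start sites. The core was present on either strand in 3 windows (9.68%), 1 each of Ace, Abca4 and Otx2, while 6.25% of all 32851 windows held it. The window of Ace precedes the first base of the gene, whereas those of Abca4 and Otx2 precede start sites that lie inside the annotated gene. The sequences below are printed to show the core, in capitals, in these promoters, beside the promoter of Kl, in which neither spelling occurs. The whole window is printed for Ace (chr11:105967698-105967947, + strand) and Kl (chr5:150952357-150952606, + strand), and 26 bases around the core for Abca4 (chr3:122044392-122044417, + strand) and Otx2 (chr14:48665305-48665330, - strand). A match is a description of the letters and says nothing of binding.
Ace: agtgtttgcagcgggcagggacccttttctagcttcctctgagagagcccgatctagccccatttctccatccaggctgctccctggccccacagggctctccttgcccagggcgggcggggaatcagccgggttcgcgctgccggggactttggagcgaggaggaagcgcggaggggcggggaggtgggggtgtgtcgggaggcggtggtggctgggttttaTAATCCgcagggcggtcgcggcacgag
Kl: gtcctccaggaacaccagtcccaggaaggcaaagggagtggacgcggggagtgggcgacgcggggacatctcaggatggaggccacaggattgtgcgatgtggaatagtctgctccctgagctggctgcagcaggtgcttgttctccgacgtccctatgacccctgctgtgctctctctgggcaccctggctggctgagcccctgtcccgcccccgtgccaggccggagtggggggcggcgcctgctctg
Abca4: aattagagggGGATTAtgcttgaagg
Otx2: tgtgcccctcGGATTAtctcgttagt

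The arrays that carried most signal of the 29 genes were few. In 4 of the 20 arrays, KO stress replicates 1, 2 and 4 and WT stress replicate 4, all 29 genes were above their own mean over the arrays. WT stress replicate 4 was the highest of all 20 arrays for 28 of the 29 genes, which held for all 10 genes outside the study's lists, while 5.06% of all probe sets had their highest value there. KO stress replicate 2 came second for 26 of them, against 0.966% of all probe sets with this order. Lepr was the exception, with its highest value (7.80) in KO stress replicate 2. The median of the 28 genes other than Ttr lay 2.13 above their means in WT stress replicate 4 and 1.5 above in KO stress replicate 2, on the log2 scale. It lay 0.50, 0.41 and 0.24 above in KO stress replicate 4, KO stress replicate 1 and WT stress replicate 1, and between -0.52 and 0.00 in the other 15 arrays. Within KO stress, replicate 2 was highest for 27 genes (12.6% of all probe sets) and replicate 3 lowest for 26, where 1 of the 29 genes was above its mean. The KO stress group thus held 3 arrays with all genes high, 1 with 15 genes above their mean and 1 with a level like that of the control groups, and the WT stress group held 1 array with every gene high.

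**Figure D1:**
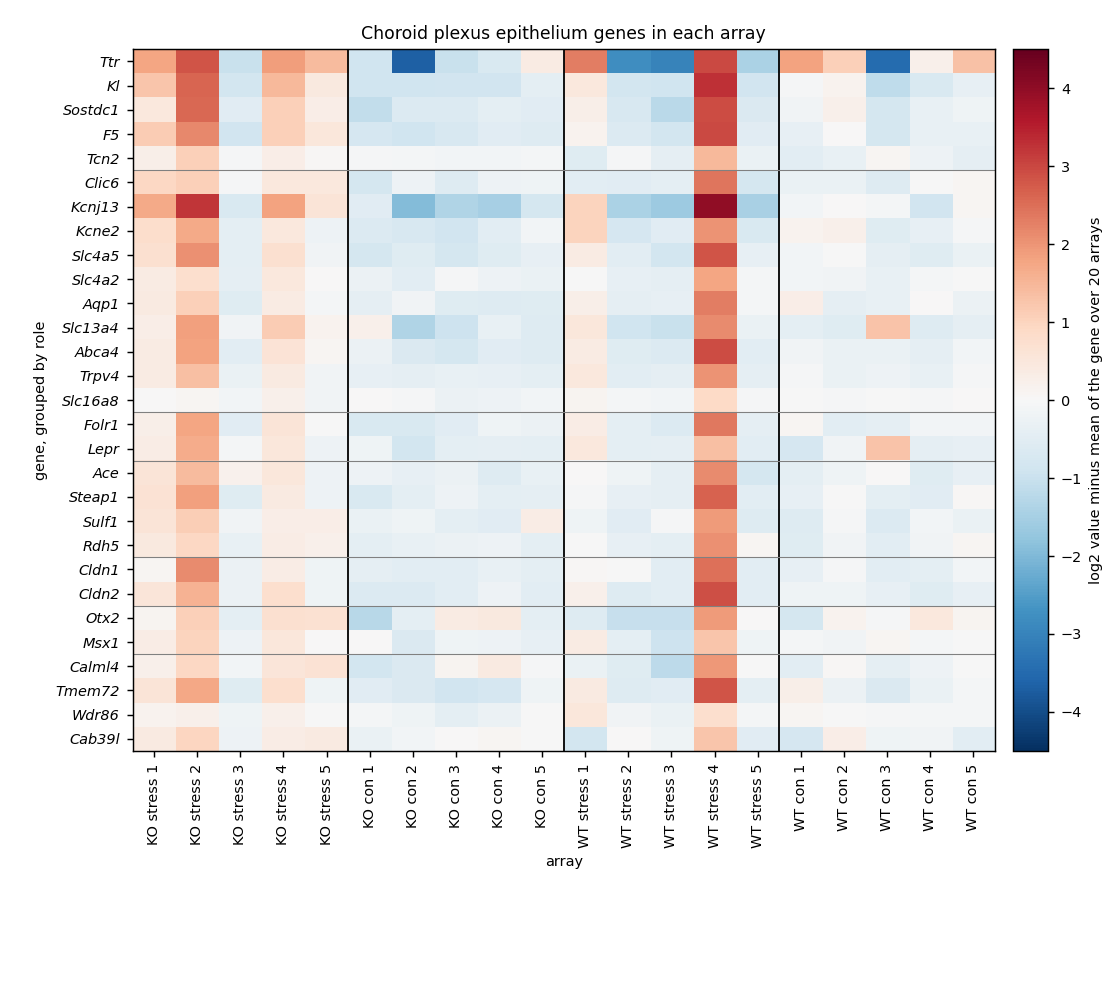
Log2 value of each of the 29 genes (rows, grouped by role) in each of the 20 arrays (columns, in the order KO stress, KO con, WT stress, WT con), as the difference from the gene's mean over all arrays (colour). WT stress replicate 4 and KO stress replicate 2 are the columns with the highest values for most genes.

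Ttr encodes transthyretin, the carrier of thyroid hormone and of retinol-binding protein in cerebrospinal fluid and blood. It read 12.01, 13.04, 9.23, 12.10 and 11.65 in KO stress replicates 1 to 5, against 9.31, 6.54, 9.23, 9.53 and 10.59 in KO con. It read 12.52, 7.42, 7.23, 13.18 and 8.79 in WT stress, against 12.02, 11.30, 6.74, 10.43 and 11.52 in WT con. Ttr had the widest range of the 29 genes (6.64), and 4 of 5 KO stress arrays were above all KO con arrays, whereas the WT groups overlapped over nearly their whole range. Kl encodes Klotho, a co-receptor of a hormone of phosphate balance that is shed into the fluid. It read 8.80, 10.17, 6.74, 9.02 and 7.99 in KO stress, against 6.67, 6.65, 6.69, 6.68 and 7.10 in KO con. It read 8.02, 6.73, 6.66, 10.83 and 6.71 in WT stress, against 7.50, 7.70, 6.42, 6.87 and 7.18 in WT con. The KO con arrays lay close together, with an SD of 0.19, and all KO stress arrays but replicate 3 lay above them.

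The other secreted proteins had the same highest arrays, WT stress replicate 4 and then KO stress replicate 2. Sostdc1, a secreted antagonist of BMP and Wnt signals, read 7.89, 10.01, 6.89, 8.47 and 7.70 in KO stress, against 6.29, 6.81, 6.81, 6.97 and 6.89 in KO con. In WT stress it read 7.67, 6.68, 6.21, 10.36 and 6.75, against 7.25, 7.63, 6.62, 7.09 and 7.22 in WT con. F5, coagulation factor V, read 7.18, 8.18, 5.18, 7.09 and 6.55 in KO stress, against 5.28, 5.13, 5.31, 5.51 and 5.43 in KO con. In both genes the lowest KO stress array, replicate 3, fell within the KO con arrays. F5 read 6.19, 5.41, 5.21, 9.0 and 5.52 in WT stress, against 5.66, 6.03, 5.25, 5.70 and 5.69 in WT con. Tcn2, transcobalamin, which carries cobalamin, read 8.86, 9.68, 8.53, 8.88 and 8.66 in KO stress, against 8.53, 8.5, 8.48, 8.46 and 8.52 in KO con. These KO groups did not overlap, though the nearest arrays both read 8.53 when rounded, and the KO con arrays had an SD of 0.03. Tcn2 read 8.06, 8.53, 8.20, 10.05 and 8.29 in WT stress, against 8.12, 8.27, 8.67, 8.36 and 8.19 in WT con, where replicate 4 of WT stress alone was above all WT con arrays.

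Among the transporters and channels, Kcnj13, an inward rectifier potassium channel of the apical membrane, moved most. It read 9.27, 10.79, 6.89, 9.39 and 8.14 in KO stress, against 7.05, 5.61, 6.24, 6.09 and 6.78 in KO con. It read 8.58, 6.14, 5.94, 11.57 and 6.12 in WT stress, against 7.47, 7.61, 7.49, 6.71 and 7.65 in WT con. In the WT stress group 3 of 5 arrays lay below every WT con array and the other 2 above, with the mean of the group (7.67) between them. Clic6, of the family of intracellular chloride channels, read 9.58, 9.72, 8.61, 9.13 and 9.14 in KO stress, against 7.86, 8.42, 8.08, 8.44 and 8.45 in KO con, without overlap. It read 8.18, 8.15, 8.21, 11.06 and 7.87 in WT stress, against 8.35, 8.36, 8.07, 8.62 and 8.75 in WT con. Kcne2 encodes a subunit of potassium channels and lies on chromosome 16 like Clic6, with 200014 bases between both genes (GRCm38.p6). It read 7.24, 8.18, 6.03, 6.93 and 6.22 in KO stress, against 5.85, 5.74, 5.58, 5.97 and 6.33 in KO con. In WT stress Kcne2 read 7.45, 5.72, 5.94, 8.48 and 5.79, against 6.60, 6.70, 5.92, 6.08 and 6.42 in WT con.

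Slc4a5, a sodium bicarbonate cotransporter, read 7.17, 8.48, 6.00, 7.15 and 6.28 in KO stress, against 5.64, 5.89, 5.66, 5.89 and 6.08 in KO con. In WT stress it read 6.82, 5.98, 5.60, 9.26 and 6.08, against 6.32, 6.43, 6.05, 5.89 and 6.14 in WT con. Only KO stress replicate 3 lay within the KO con range. Slc13a4, a sodium sulfate cotransporter, read 7.82, 9.38, 7.37, 8.68 and 7.68 in KO stress, against 7.75, 6.17, 6.60, 7.21 and 6.94 in KO con. In WT stress it read 8.05, 6.63, 6.53, 9.68 and 7.24, against 7.11, 6.98, 8.82, 6.96 and 7.13 in WT con, where replicate 3 stood above the other 4. The remaining transporters kept the same highest array. They were the anion exchanger Slc4a2, the water channel Aqp1, the cation channel Trpv4, the lactate transporter Slc16a8 and the retinoid transporter Abca4, and they read 5.52 to 9.68 over all arrays. Slc16a8 had the narrowest range of the 29 genes (1.17).

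The receptors, enzymes and junction proteins showed the same arrays on top, apart from Lepr. Folr1, the folate receptor of the epithelium, read 7.15, 8.66, 6.39, 7.49 and 6.88 in KO stress, against 6.21, 6.23, 6.39, 6.70 and 6.65 in KO con. In WT stress it read 7.23, 6.45, 6.30, 9.28 and 6.49, against 7.0, 6.43, 6.49, 6.78 and 6.78 in WT con. Lepr, the leptin receptor, read 6.44, 7.80, 6.03, 6.62 and 5.91 in KO stress, against 5.94, 5.29, 5.68, 5.71 and 5.69 in KO con. In WT stress it read 6.60, 5.69, 5.71, 7.46 and 5.66, against 5.38, 5.96, 7.41, 5.70 and 5.74 in WT con, and the high WT con array was again replicate 3. Ace, which converts angiotensin I, read 8.18, 9.02, 7.77, 8.11 and 7.37 in KO stress, against 7.36, 7.23, 7.34, 7.02 and 7.24 in KO con, without overlap, though the nearest arrays were 7.37 and 7.36. In WT stress Ace read 7.62, 7.40, 7.17, 9.72 and 6.81, against 7.15, 7.38, 7.61, 7.06 and 7.22 in WT con. The claudins Cldn1 and Cldn2, proteins of the tight junction, had WT stress replicate 4 (8.70 and 8.58) and KO stress replicate 2 (8.36 and 7.22) as their highest arrays, and all other arrays lay between 5.06 and 6.56.

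Of the transcription factors, Otx2 read 7.61, 8.56, 7.06, 8.20 and 8.19 in KO stress, against 6.24, 7.04, 7.85, 7.95 and 7.07 in KO con. In WT stress Otx2 read 6.90, 6.44, 6.44, 9.42 and 7.52, against 6.71, 7.65, 7.43, 7.97 and 7.61 in WT con. Of the KO stress arrays 3 lay above all KO con arrays and the other 2 among them, and 4 of 5 WT stress arrays lay below the median WT con array (7.61). Msx1, a homeodomain factor, read 5.70 to 7.86 over the 20 arrays, with means of 6.96 in KO stress, 6.34 in KO con, 6.64 in WT stress and 6.57 in WT con. Its KO difference was 0.62 (SE 0.30, exact permutation p = 0.0476, two-sided), which with the limma p of 0.0512 missed the study's criterion. Msx1 met the criterion by the methods' t-test and is on the study's list for this comparison. Cab39l, a homologue of a kinase scaffold protein, read 9.09, 9.64, 8.43, 9.01 and 9.08 in KO stress, against 8.36, 8.55, 8.70, 8.74 and 8.64 in KO con. In WT stress Cab39l read 7.85, 8.68, 8.46, 9.92 and 8.17, against 7.92, 8.96, 8.46, 8.51 and 8.20 in WT con.

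**Figure D2:**
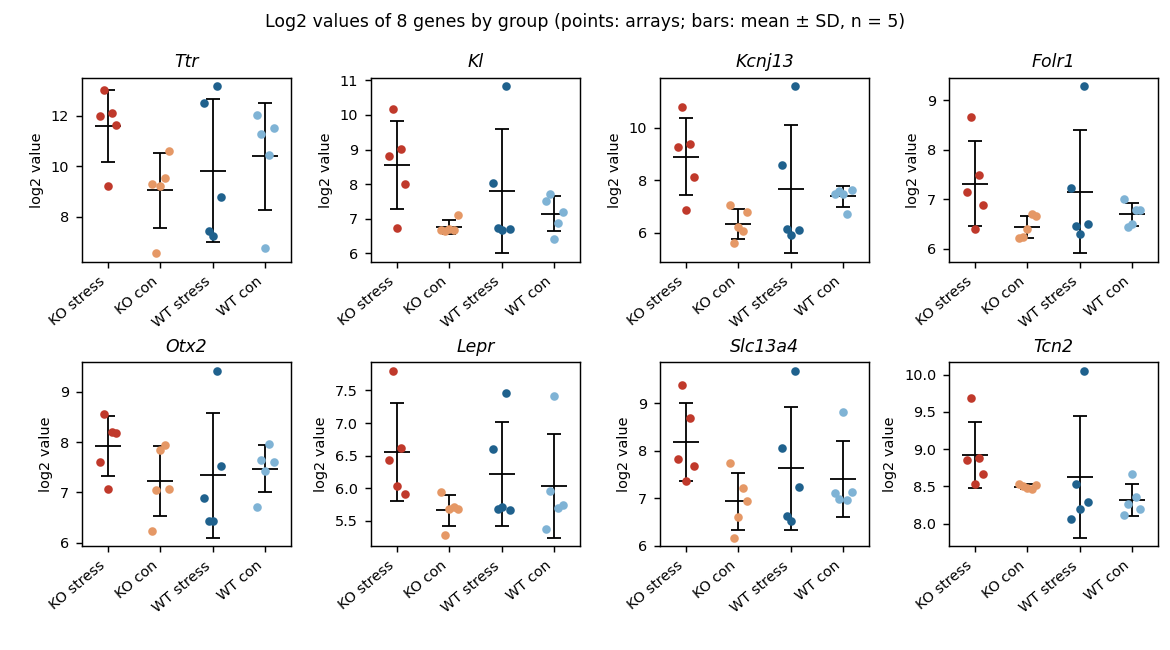
Log2 values of 8 of the genes in KO stress, KO con, WT stress and WT con, with 1 point for each array and the mean ± SD of the 5 arrays as bars. A single WT stress array, replicate 4, stands above the rest of its group for most of the genes, and 1 WT con array, replicate 3, for Lepr and Slc13a4.

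In the comparison of KO stress with KO con, all 29 genes had a positive difference (48.5% of all probe sets did), with a median of 0.86 on the log2 scale against a median of 0.00 over all probe sets. By the criterion of the study, a change of more than 1.5-fold at an unadjusted p below 0.05, here with the p of limma, 11 of the 29 genes were higher (0.136% of all probe sets) and none lower (0.00348%). All 11 are on the study's lists, and 0 of the 10 other genes met the criterion with all arrays in the fit, with differences of 0.14 to 0.88 (median 0.58). Of these 10, 4 met it without WT stress replicate 4 (Calml4, Cldn1, Folr1 and Steap1) and 2 without KO stress replicate 3 (Folr1 and Steap1). None of the 29 genes passed the adjustment over all probe sets (limma, lowest adjusted p = 1). Without KO stress replicate 2 the count was 1 (Kcnj13), against 0.0348% of all probe sets in that fit, and the median was 0.54. Without KO stress replicate 1, 3 or 4 the count was 5, 21 or 4, against 0.226%, 0.271% or 0.0487% of all probe sets. Without KO con replicate 1, 2, 3 or 4 it was 6, 5, 4 or 6, and without WT stress replicate 4, which enters only through the shared estimate of spread, it was 23. The shares of all probe sets in these last fits are not given here.

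The 11 genes were Ttr (2.57, SE 1.22), Kcnj13 (2.54, SE 0.87), Kl (1.79, SE 0.67), F5 (1.5, SE 0.58), Sostdc1 (1.44, SE 0.62), Slc13a4 (1.25, SE 0.55), Slc4a5 (1.19, SE 0.53), Kcne2 (1.03, SE 0.47), Clic6 (0.99, SE 0.43), Lepr (0.90, SE 0.41) and Ace (0.86, SE 0.39). By role they were 4 of 5 secreted or shed proteins, 5 of 10 transporters and channels, 1 of 2 receptors and 1 of 4 enzymes, with none of the 2 junction proteins, the 2 transcription factors or the 4 other genes. For 5 genes, Clic6, Ace, Cldn1, Trpv4 and Tcn2, every KO stress array was above every KO con array (0.195% of all probe sets), which gives an exact permutation p of 0.00794, two-sided, the smallest that 5 against 5 arrays allow. Cldn1 and Tcn2 are outside the study's lists, with differences of 0.85 (SE 0.47) and 0.43 (SE 0.28). The exact permutation test gave an unadjusted p under 0.05 with a positive difference for 24 of the 29 genes, 5 of them outside the lists, against 1.4% of all probe sets. Otx2 (0.69, SE 0.48, exact permutation p = 0.135) and Slc16a8 (0.14, SE 0.15, exact permutation p = 0.19) had the largest p of the 29 genes in this test.

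In the comparison of WT stress with WT con, 27 of 29 genes had a positive difference (62.8% of all probe sets), with a median of 0.37, and 0 met the criterion (0.222% of all probe sets were higher and 0.0174% lower by it). The number with an unadjusted p of limma under 0.05 was also 0, and the lowest exact permutation p was 0.286. Ttr (-0.58, SE 1.22) and Otx2 (-0.13, SE 0.48) had negative differences. Without WT stress replicate 4 only 4 of 29 differences were positive and the median was -0.08, with Ttr at -1.42 (SE 1.18), Kcnj13 at -0.69 (SE 0.63) and Otx2 at -0.65 (SE 0.36), none of which met the criterion (limma, adjusted p = 0.894, 0.899 and 0.893). Without WT stress replicate 3 the median was 0.59. The positive sign of the group difference thus rested on 1 array.

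**Figure D3:**
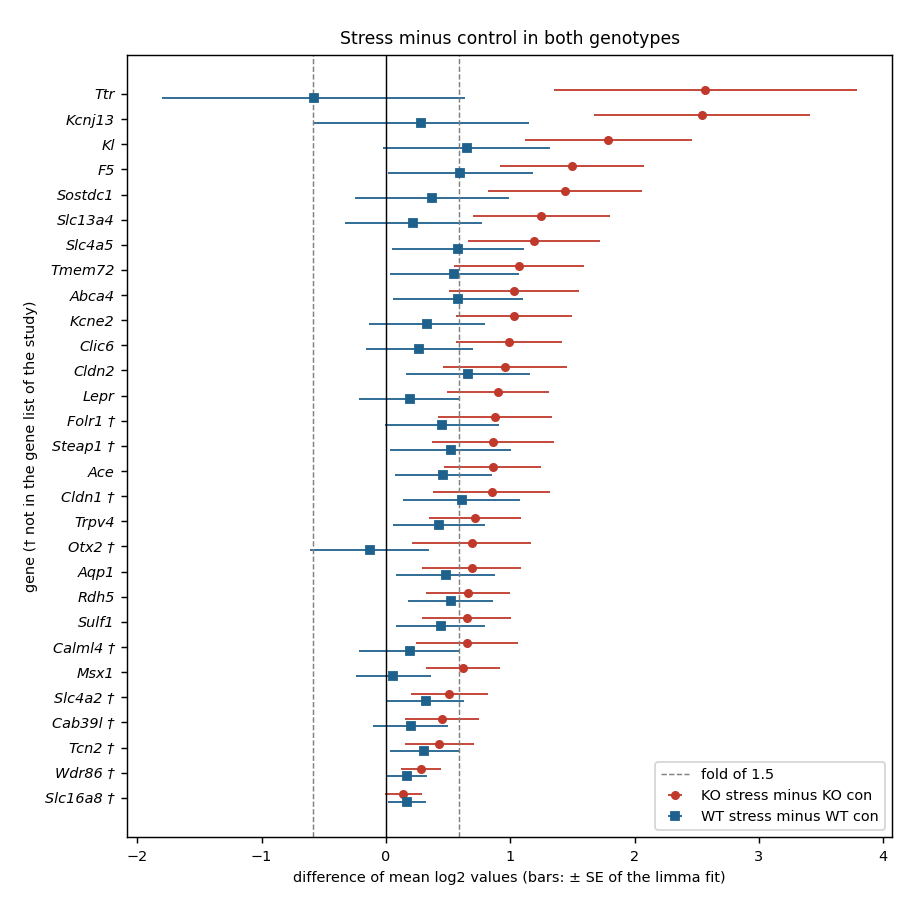
Difference of mean log2 values of stress minus con for each of the 29 genes, in KO (circles) and WT (squares) mice, with the SE of the limma fit as bars and a fold of 1.5 as dashed lines. All 29 KO differences are positive, while most WT bars reach 0 or lie close to it.

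Between unstressed mice, KO con against WT con, 25 of 29 differences were negative with a median of -0.24, while 50.1% of all probe sets were positive, and 0 met the criterion (0.0243% of all probe sets were lower by it and 0.0243% higher). The positive ones were Cab39l (0.19, SE 0.30), Tcn2 (0.17, SE 0.28), Sulf1 (0.10, SE 0.36) and Calml4 (0.01, SE 0.41). The number with an unadjusted p of limma under 0.05 was 0. The exact permutation test, which uses the spread of these 10 arrays alone, gave an unadjusted p under 0.05 with lower values in KO con for 5 genes (3.24% of all probe sets), among them Trpv4, whose KO con arrays all lay below the WT con arrays (0.41% of all probe sets), and Kcnj13 (-1.04, SE 0.87, exact permutation p = 0.0238). Kcnj13 met the criterion by the methods' t-test and is on the study's list for this comparison. All 5 genes (Trpv4, Kcnj13, Slc4a5, F5 and Abca4) are on the study's list for KO stress against KO con, drawn from these same KO con arrays. Their low KO con values are therefore no independent evidence. Trpv4 read 6.14, 6.10, 6.18, 6.13 and 6.07 in KO con and 6.47, 6.22, 6.30, 6.19 and 6.45 in WT con, with a difference of -0.20 (SE 0.37, exact permutation p = 0.00794). The KO con arrays are also the ones against which KO stress was set.

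Between stressed mice, KO stress against WT stress, 26 of 29 differences were positive (41.3% of all probe sets) with a median of 0.30, and 0 met the criterion (0.348% of all probe sets were higher and 0.421% lower by it). Without WT stress replicate 4 all 29 were positive, the median was 0.76 and 20 genes met the criterion, against 0.761% of all probe sets in that fit. Of these 20, Folr1, Otx2, Calml4, Steap1, Cab39l and Tcn2 are outside the study's lists. Without KO stress replicate 2 the median was 0.03 and the count 0. With both arrays left out, 10 genes met it, against 0.532% of all probe sets, and the median was 0.47. Among them Clic6 differed by 1.01 (SE 0.19), Kcnj13 by 1.73 (SE 0.58), Kl by 1.11 (SE 0.42) and Otx2 by 0.94 (SE 0.37), with adjusted p of limma of 0.362, 0.424, 0.424 and 0.426.

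The interaction, the stress difference of KO minus that of WT, was positive for 28 of 29 genes (median 0.44), with 0 at an unadjusted p under 0.05 (2.52% of all probe sets, 0.702% with a positive sign). It was largest for Ttr (3.14, SE 1.73) and Kcnj13 followed at 2.26, and Slc16a8 was negative (-0.04). Without WT stress replicate 4 the number at an unadjusted p under 0.05 was 21 (1.26% of all probe sets), with a median of 0.95. Of these 21, Folr1, Slc4a2, Otx2, Calml4 and Steap1 are outside the study's lists. Without KO stress replicate 3 the number was 2 (0.946% of all probe sets with a positive sign). It was 1 when WT stress replicate 1 or WT con replicate 3 was left out. Averaged over both genotypes, stress exceeded con for all 29 genes (median 0.66, 60.6% of all probe sets positive), and 10 genes met the criterion (0.0556% of all probe sets). These were Kcnj13 (1.41, SE 0.62), Kl (1.22, SE 0.48), F5 (1.05, SE 0.41), Slc4a5 (0.88, SE 0.38), Cldn2 (0.81, SE 0.35), Tmem72 (0.81, SE 0.37), Abca4 (0.81, SE 0.37), Cldn1 (0.73, SE 0.34), Ace (0.66, SE 0.28) and Rdh5 (0.59, SE 0.24). Of them only Cldn1 is outside the study's lists, which were drawn from the same KO arrays. The count was 2 without KO stress replicate 2 (0.0209% of all probe sets in that fit) and 3 without WT stress replicate 4. It was 6, 19 or 4 without KO stress replicate 1, 3 or 4, 19, 18 or 18 without WT stress replicate 2, 3 or 5, 6 without KO con replicate 2 and 5 without WT con replicate 4.

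**Figure D4:**
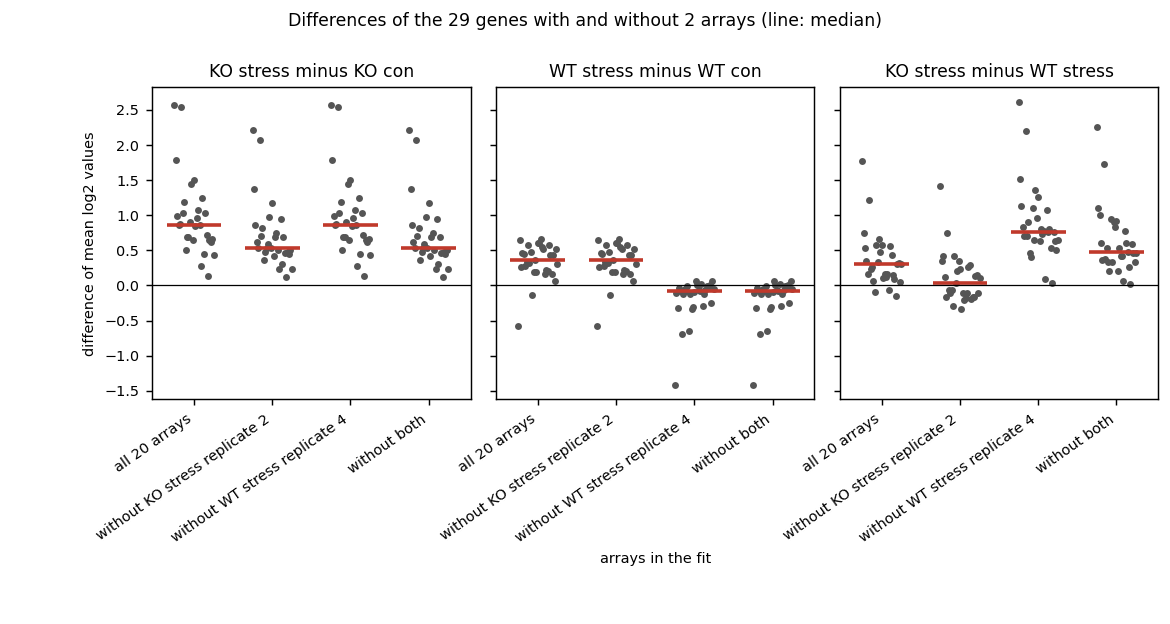
Differences of the 29 genes (points, log2 scale; red line, median) in 3 comparisons, with all 20 arrays, then with KO stress replicate 2, WT stress replicate 4 or both left out. The KO stress minus KO con medians stay positive (0.86, 0.54, 0.86 and 0.54), whereas the WT stress minus WT con median is 0.37 with replicate 4 of WT stress and -0.08 without it.

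Over all 20 arrays, Ttr had the lowest correlation of the 29 genes with the median of the others. After the group means were removed, the other 28 genes correlated with Ttr over the 20 arrays at 0.26 to 0.80 (median r 0.64). Kcne2 alone reached 0.8 (r = 0.80, rho = 0.88, permutation p adjusted over 28 relations 0.00014 for r and 0.000187 for rho), 21 lay between 0.5 and 0.8, and 6 lay below. Of all probe sets 0.00695% reached 0.8 and 2.49% reached 0.5. The adjusted permutation p was under 0.05 for 22 genes by r and 20 by rho. Without the 2 arrays farthest from the median of Ttr, KO con replicate 2 and WT con replicate 3, 14 genes reached 0.8. With Kl in place of Ttr 21 genes did, and with the median of the other 28 genes, 24 of 29 did, 17 of them at 0.9 or more. Set against that median, Ttr had an r of 0.69, followed by Lepr (0.71), Otx2 (0.73), Cab39l (0.75) and Slc13a4 (0.77).

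Ttr lay farthest from the median of the other genes in arrays with little signal of those genes. In WT con replicates 1, 2 and 5 Ttr was 1.80, 1.08 and 1.30 above its mean while the median of the other genes was -0.18, -0.11 and -0.11 from theirs. In WT stress replicate 1 it was 2.30 above its mean, with the other genes at 0.24. At the other end, Ttr lay at -3.68 from its mean in KO con replicate 2, at -3.48 in WT con replicate 3 and at -2.99 and -2.80 in WT stress replicates 3 and 2, where the other genes lay at -0.52, -0.35, -0.48 and -0.46. Ttr thus ranged widely among arrays in which the other genes differed little. The other genes were far above their means (medians 2.13 and 1.5) in 2 arrays, WT stress replicate 4 and KO stress replicate 2, in which Ttr read 13.18 and 13.04.

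**Figure D5:**
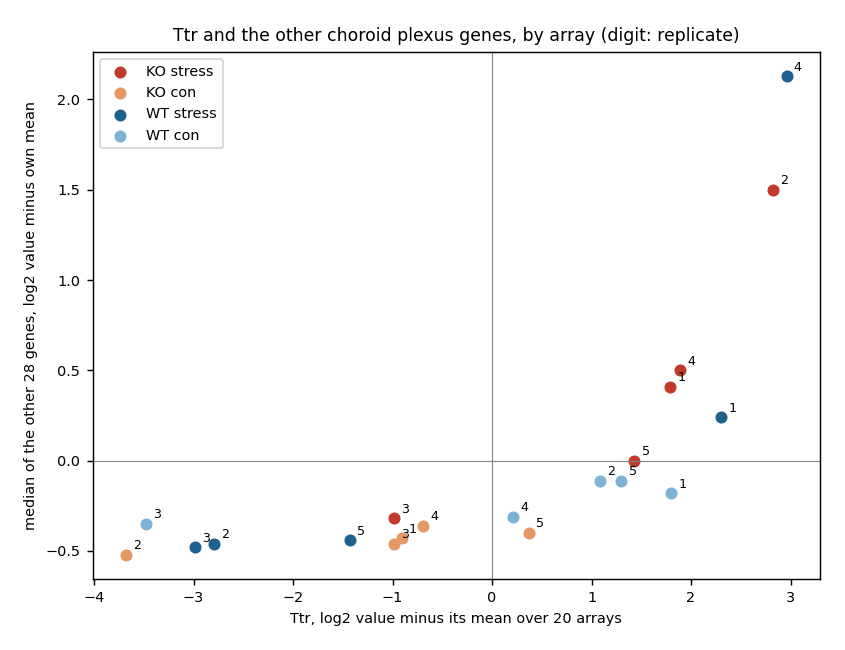
Ttr (x axis) and the median of the other 28 genes (y axis) in each of the 20 arrays, both as log2 differences from the mean over all arrays, coloured by group and numbered by replicate. The other genes stay between -0.52 and 0.24 over most of the range of Ttr and reach 1.5 and 2.13 in KO stress replicate 2 and WT stress replicate 4.

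The 6 genes that did not follow Ttr were Lepr (r = 0.26, rho = 0.35), Cab39l (r = 0.30, rho = 0.12), Tcn2 (r = 0.33, rho = 0.12), Slc13a4 (r = 0.44, rho = 0.58), Ace (r = 0.47, rho = 0.39) and Otx2 (r = 0.48, rho = 0.31), with adjusted permutation p of r of 0.368, 0.395, 0.389, 0.142, 0.103 and 0.0927. Without the same 2 arrays, Slc13a4 rose to 0.83, Lepr to 0.76 and Ace to 0.68, while Otx2 was at 0.57, Tcn2 at 0.55 and Cab39l at 0.38. Tcn2 and Cab39l read lower in WT stress replicate 1 (8.06 and 7.85) and WT con replicate 1 (8.12 and 7.92) than in any other array, which are the arrays that correlated least with the rest of the series, and Ttr was high in both. With WT stress replicate 4 and KO stress replicate 2 left out, 13 of the 29 genes still reached 0.8 against the median of the others (median r 0.74), whereas Tcn2 (-0.07), Cab39l (-0.06), Otx2 (0.21), Lepr (0.31) and Calml4 (0.32) were lowest and Ttr had 0.74. These correlations share their arrays, and the tissue taken from each mouse.

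Markers of neighbouring tissues moved with some of these values, and their part in the results was not tested. The mean level of 20 genes of meninges and fibroblasts was 6.85 to 8.53 in KO stress, 6.58 to 7.19 in KO con, 6.68 to 7.48 in WT stress and 6.60 to 8.22 in WT con. It was 1.44 above its mean in KO stress replicate 2, 1.13 above in WT con replicate 3, where Lepr and Slc13a4 stood out, and 0.22 above in WT stress replicate 4. All 20 had positive differences between KO stress and KO con (median 0.61), 4 met the criterion, among them Lum (0.92, SE 0.36) and Pcolce (0.95, SE 0.43), both of collagen matrix, with the other two, Col1a2 and Foxd1, on the study's lists, and in WT 11 of 20 were positive (median 0.01). The mean level of 22 genes of ependyma and motile cilia was 6.67 to 7.36 in KO stress, 6.00 to 7.20 in KO con, 5.97 to 7.06 in WT stress and 6.22 to 7.07 in WT con. All 22 had positive differences in KO (median 0.39, 0 met the criterion), and 4 of 22 did in WT (median -0.18). Of all probe sets 48.5% were positive in KO and 62.8% in WT, and 0.136% were higher by the criterion in KO. Pallial excitatory neuron genes lay 1.41 above their mean in WT stress replicate 4 and 1.17 above in WT stress replicate 5, of which the second had the epithelial genes at -0.44. The median KO difference was 0.08 for that list, 0.11 for endothelium, 0.10 for astrocytes, -0.04 for oligodendrocytes, 0.03 for GABAergic neurons and -0.16 for striatal and central amygdala neurons, and none of their genes met the criterion in KO. Between WT stress and WT con the neuronal lists differed, with a median of 0.57 for the pallial list (7 of 7 positive, 2 met the criterion), -0.45 for the GABAergic list (7 of 7 negative, 0 met it) and 0.43 for the striatal list (5 of 6 positive, 0 met it). Of all probe sets 0.222% were higher by the criterion in that comparison. Between KO stress and WT stress the medians were -0.36 for the pallial list (7 of 7 negative, 1 met it), 0.46 for the GABAergic list (7 of 7 positive, 3 met it) and 0.12 for the striatal list (4 of 6 positive, 0 met it). In the same comparison the median was 0.44 for meninges and fibroblasts (20 of 20 positive, 2 met it). It was also 0.44 for ependyma and motile cilia (21 of 22 positive, 2 met it). Of all probe sets 0.348% were higher and 0.421% lower by it. Dlx1 and Dlx2 of the GABAergic list, Foxd1 of the meningeal list and Spef2 of the ependymal list are on the study's list for this comparison. It was drawn from these arrays, so that these genes are no independent evidence. Of the red blood cell genes Alas2 alone was measured (0.20, SE 0.12).

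Further genes of fluid secretion and barrier transport at the plexus were read apart from the 29. Of 35 such genes measured, 29 had positive differences between KO stress and KO con (median 0.26) and 3 met the criterion, Igf2, a growth factor (1.04, SE 0.47), Col8a1, a short-chain collagen (1.01, SE 0.41), and Wfikkn2, a protease inhibitor-like protein (0.64, SE 0.26). Of all probe sets 48.5% were positive and 0.136% higher by the criterion in that comparison. Igf2 and Col8a1 are on the study's lists for this comparison, drawn from these arrays, as is Car12 for the comparison in WT. Between WT stress and WT con 28 were positive (median 0.16) and 1 met it, the carbonic anhydrase gene Car12 (1.53, SE 0.53), with a limma p of 0.00963 before adjustment and 1 after. Of all probe sets 62.8% were positive in WT and 0.222% higher by the criterion. WT stress replicate 4 was the highest array for 20 of the 35 (57.1%), against 5.06% of all probe sets. An r of 0.8 or more with the median of the 29 genes was reached by 0.383% of the probe sets outside them. Among the 35 genes this r was 0.8 or more for 14, led by Ecrg4 (0.95) and Col8a1 (0.95), and under 0.5 for 11. The second set included Wfikkn2 (0.45), which met the criterion in KO. Also in it were Atp1b1 (0.04), a subunit of the sodium pump, Trf (0.23), transferrin, and Car2 (0.30), which neurons or glia of the amygdala express as well. Whether that bears on their r was not tested. Htr2c, the serotonin receptor gene typical of the plexus and also expressed in amygdala neurons, differed by -0.01 (SE 0.18) in KO and -0.06 (SE 0.18) in WT, with its highest value (10.51) in WT stress replicate 4.

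Outside the 29 genes, the probe sets with 1 symbol most like Ttr over the 20 arrays were Tcaf2 and Pwp2 (both r = 0.76), Oplah and Ifi27 (both 0.75), Vamp8 and C2cd4b (both 0.74), Myo5c (0.73) and Tjp3, Galm and Slc28a3 (all 0.72). These were chosen as the highest of all probe sets and have no test. Slc28a3, a nucleoside transporter, also followed the median of the 29 genes (r = 0.93), whereas Pwp2 (0.47) and C2cd4b (0.50) did not reach the same likeness to it.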

How the data were processed

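Amygdala RNA of 20 male mice, 1 mouse per array, was measured on Affymetrix MoGene-1_0-st arrays in 4 groups of 5. The authors normalized with ExonRMA (ArrayAssist), followed by variance stabilization, and deposited log2 values for 28767 probe sets, which were used as deposited. All 20 columns matched samples by their labels. Symbols come from the platform's probe table, in which 21776 probe sets have 1 symbol, 1618 several and 5373 none, and 21686 gene IDs matched RefSeq (GRCm38.p6). The arrays and their number limit the precision.

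The main test was limma 3.58.1 under R 4.3.3, with lmFit for 4 group means, eBayes over all probe sets and Benjamini-Hochberg adjustment over all 28767. The criterion of the study was a change of more than 1.5-fold at an unadjusted p below 0.05. Exact permutation tests (two-sided, 252 splits) used 5 against 5 arrays. Correlations were taken after group means were removed, with 100000 permutations within groups (Python 3.11.15, scipy 1.17.1), two-sided and adjusted over 28 relations. The scripts were tested on simulated data. Figures used matplotlib 3.10.9.

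The 32 genes, the lists of cell types and of other choroid plexus genes, and the rules were chosen with earlier results of these data known. By the rule for named genes, all 32 are accounted for, array values are given for Ttr, Kl, Kcnj13, Otx2, Folr1, the called genes with the largest differences and genes with r under 0.5 to Ttr, and of other genes Slc6a4, the 10 most like Ttr and up to 4 of each list. Trpv4 was added after its values were seen, as were Htr2c, Ecrg4, Atp1b1, Trf and Car2.

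Replicates are numbered 1 to 5 in each group by the labels, which do not state what a shared number means. Deviations from group means correlated at 0.162 to 0.420 in the 5 same-numbered pairs of WT stress and WT con, all over 0.1, and in no other 2 groups were all pairs over 0.1. Of the 5 WT stress arrays 3 correlated best with the WT con array of their own number, as did 3 of 5 KO con arrays with WT con. Pairing by number was used in WT only, as an assumption that the labels do not settle. Alternatives covered the methods' t-test, the compared groups alone, normalization, centring, a level filter, eBayes settings, array weights, replicate blocks and each array left out.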

Additional observations from a re-analysis of the deposited data

Results flagged for a closer look

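Over the 29 genes and 4 groups, 116 sets of 5 arrays were examined for 1 array far from the others, by the gap to the nearest array divided by the range of the group, with 0.71 as the critical value for 5 arrays. At this value chance alone marks about 5% of such sets, and 20 were marked, which share arrays and are not independent. Of these, 14 had WT stress replicate 4 as the highest array, with ratios of 0.892 for Clic6, 0.722 for Ace, 0.813 for Slc4a2, 0.751 for Aqp1, 0.744 for F5, 0.816 for Cldn1, 0.774 for Cldn2, 0.71 for Tmem72, 0.868 for Steap1, 0.724 for Abca4, 0.749 for Slc16a8, 0.783 for Sulf1, 0.791 for Rdh5 and 0.764 for Tcn2. WT con replicate 3 was far above its group for Slc13a4 (0.909) and Lepr (0.715). KO stress replicate 2 was far above its group for Cldn1 (0.751) and KO con replicate 5 for Kl (0.919), where it read 7.10 and the other KO con arrays 6.65 to 6.69. Low arrays were WT con replicate 4 for Kcnj13 (0.812), which read 6.71, and KO con replicate 1 for Sostdc1 (0.77), which read 6.29.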

How the results depend on the processing

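The median difference of the 29 genes kept its sign under every alternative in 5 of 6 comparisons. In the sixth, WT stress against WT con, it was 0.37 with all arrays and -0.08 without WT stress replicate 4, alone or together with KO stress replicate 2. With single arrays left out the medians were 0.54 to 1.03 for KO stress against KO con, -0.08 to 0.59 for WT stress against WT con, -0.25 to -0.20 for KO con against WT con, 0.03 to 0.76 for KO stress against WT stress, 0.17 to 0.95 for the interaction and 0.39 to 0.75 for stress averaged over genotypes. The counts of genes meeting the criterion (for the interaction, an unadjusted p under 0.05) were then 1 to 23, 0 to 0, 0 to 0, 0 to 20, 0 to 21 and 2 to 19 in the same order, and the number that follow Ttr was 0 to 6 (0 without KO stress replicate 3, KO con replicate 5 or WT stress replicate 2, 3 or 4, 3 without KO con replicate 2 and 6 without WT con replicate 3). Against 11 genes for KO stress over KO con, the methods' t-test gave 19, limma on the compared groups alone 21 and array weights 21. The share of all probe sets higher by the criterion was 0.136% in the main fit, and 0.146%, 0.191% and 0.313% in these. Of the 10 genes outside the study's lists 0 were among the 11, 0 among the 19 of the t-test, 2 with the compared groups alone (Calml4 and Folr1) and 3 with array weights (Cldn1, Folr1 and Steap1). For KO con against WT con the methods' t-test and the compared groups alone each gave 1 (Kcnj13), against 0.0348% and 0.0487% of all probe sets lower. For KO stress against WT stress array weights gave 1 and leaving out both highest arrays, chosen after the data were seen like the other pairs of arrays and the median in place of Ttr, gave 10. With array weights 0.143% of all probe sets were higher in that comparison. For the interaction array weights gave 2 and leaving out both highest arrays 15. With array weights 1.56% of all probe sets had an unadjusted p under 0.05 and a positive interaction. Averaged stress gave 6 with quantile normalization, 6 with array weights, 1 without both highest arrays, 2 without both arrays that correlate least with the rest, and 1 among the genes outside the lists, against 10. For averaged stress 0.0417% of all probe sets were higher with quantile normalization, and 0.0556% both with array weights and in the main fit. Genes that follow Ttr numbered 21 with Kl in its place, 14 without the 2 farthest arrays and 24 with the median of the others, against 1. The share of all probe sets meeting the criterion also changed between fits, and the causes of these changes were not tested. No gene of the 29 passed an adjusted p of 0.05 in any setting.

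With a replicate block in the WT groups, where pairing by number was assumed, the count for WT stress against WT con was 0 and the median 0.37, so that no call changed. A block in all groups gave 12 genes for KO stress against KO con, 1 for the interaction and 14 for averaged stress. Of all probe sets 0.156%, 1.33% and 0.073% were higher by the same rules in that fit. The mean of several probe sets per gene was not run since each gene has 1, nor were the methods' t-test and the compared groups alone for the interaction and the average, which need all 4 groups.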
